A study of Mus musculus with 2 samples.

Results

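The Mir130 and Mir301 genes encode one microRNA (miRNA) seed family, and their levels are described here in the newborn mouse thymus. The members, Mir130a, Mir130b, Mir301 and Mir301b, were taken by gene symbol and not by level, though earlier results of these data were known. They make up 4 of the 1973 miRNA genes in the count tables. Small RNA under 30 nucleotides was sequenced from total RNA of whole thymus, taken on postnatal day 0 from 2 pups of 1 litter of the strain B6NCrl, each sequenced as its own library. The labels call these animals pup 2 (here replicate 1) and pup 3 (replicate 2), both lobes of each were used, and no treatment or allele is named in the labels. Both libraries form 1 group, so the data give levels and the spread between littermates and hold no contrast between conditions. The sex of the pups was not collected, and the labels give both the same donor identifier, so that they are separate animals rests on the pup numbers. In such whole tissue, fewer cells of a type and less RNA per cell cannot be told apart.

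A miRNA is cut from a hairpin precursor into a short RNA that guides Argonaute proteins to messenger RNAs, chiefly by pairing of its seed, the bases 2 to 8 from its 5′ end. miRNAs that share a seed therefore share many predicted targets and are grouped as a family, even where the rest of their sequence differs. miR-130a is known from endothelial cells and blood progenitors, where it was studied as a promoter of blood vessel growth, and miR-301a is known from inflammatory signalling and T helper cell differentiation.

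The sequences are shown because the shared seed defines the family and the bases after it decide which locus a read can be assigned to. Sequences are RefSeq entries of build GRCm38.p6, read 5′ to 3′, with the seed in capitals. Seed arms were listed for 3 of the 4 members, and the fourth, Mir301b, is shown by its hairpin with the same 7 letters in capitals.
miR-130a-3p: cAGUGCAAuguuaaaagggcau
miR-130b-3p: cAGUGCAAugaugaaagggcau
miR-301a-3p: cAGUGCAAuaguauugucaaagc
Mir301b hairpin: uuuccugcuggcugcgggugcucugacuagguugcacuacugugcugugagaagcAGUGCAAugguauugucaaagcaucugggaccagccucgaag

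The members fall into 2 branches behind the common seed. miR-130a-3p and miR-130b-3p are identical in 20 of 22 bases and differ by U11A and A13G, counted from the 5′ end with the base of miR-130a-3p first. miR-301a-3p matched miR-130a-3p in 12 of 22 bases, with all 10 differences after the seed, from G10A on. The best match of miR-301a-3p within the Mir301b hairpin held 22 of 23 bases, with A10G as the single difference, counted along miR-301a-3p. Over whole hairpins, compared on both strands with all other miRNA genes of the annotation, the longest exact stretch that a member shared with another locus was 16 bases for Mir301 and Mir301b (with each other), 16 for Mir130b (with Mir6368) and 17 for Mir130a (with Mir6389). No member shared 20 bases with another locus. The deposited counts leave out reads that map to several places, and whether reads of Mir301 and Mir301b, 1 base apart, were lost in this way was not tested.

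The opposite arms of the hairpins are shown because reads of either arm count toward the gene. The letters UUGCACU, the complement of the seed, are in capitals where present.
miR-130b-5p: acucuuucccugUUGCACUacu
miR-301a-5p: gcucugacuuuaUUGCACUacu
miR-301b-5p: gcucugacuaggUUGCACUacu
miR-130a-5p: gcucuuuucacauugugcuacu

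All 4 arms end in the same letters, and 3 of them held the full complement, which miR-130a-5p lacked. UUGCACU was found, on the listed strand and at any position, in 10 of the 1738 mature miRNAs of the table (0.575%). The counts are given per gene, so the arms cannot be told apart in these data.

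The members lie at 3 loci of build GRCm38. Mir130b (ENSMUSG00000065572.1, chromosome 16, 17124061 to 17124142, minus strand) and Mir301b (ENSMUSG00000076288.1, chromosome 16, 17124400 to 17124496, minus strand) are neighbours with 257 bases between them, in an intron of the protein-coding gene 2610318N02Rik on the same strand. Mir301 (ENSMUSG00000065589.1, chromosome 11, 87113004 to 87113089, plus strand), the gene of miR-301a, lies in an intron of Ska2, a gene for a protein that attaches chromosomes to the mitotic spindle, also on the same strand. Mir130a (ENSMUSG00000065484.1, chromosome 2, 84741115 to 84741178, minus strand) overlaps no other annotated gene. Its nearest protein-coding gene was Gm19426, 990 bases away on the same strand.

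The libraries held 2734133 (replicate 1) and 1289151 (replicate 2) counts on the strand of a miRNA gene, and levels are given in counts per 1000000 of these (CPM). A count of 0 allows a level of up to 1.10 CPM in replicate 1 and 2.33 in replicate 2, and these limits, like the intervals below, cover counting error only, since no molecular identifiers are described. At least 10 counts in both libraries were found for 294 genes, called detected here, and all 4 members were among them. The thymus label was checked against miRNA markers. Of the lymphocyte markers, 5 of 7 were in the tables under their symbols and all 5 were detected. They ranged from Mir181a-1, the thymocyte miRNA that tunes T cell receptor signalling, at 37220 and 36043 CPM, to Mir181b-1 at 132 and 85. Mir146a was sought by that symbol only, and a gene listed as Mir146 (1114 and 731 CPM) was not entered. The endothelial marker Mir126a had 28049 and 37298 CPM, the epithelial marker Mir205 had 9346 and 10405, and the mesenchymal list had a summed share of 4.57% and 6.06% of counts.

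All 4 genes were expressed, over a wide range and in the same order in both pups. Mir130b was the highest, with 12085 CPM in replicate 1 and 12308 in replicate 2 (mean 12196 ± 158, SD, n = 2), from 33041 and 15867 counts. Mir130a followed with 6829.6 and 7901 CPM (mean 7365 ± 758), from 18673 and 10186 counts. The Mir130 genes thus held the upper places, with the higher Mir130a value still below the lower Mir130b value. Mir301 had 2056 and 2205 CPM (mean 2130.2 ± 105), from 5621 and 2842 counts. Mir301b had 124 and 151 CPM (mean 138 ± 19.3), from 339 and 195 counts. No value of one member overlapped with those of another, so every step in the order exceeded the spread between the libraries.

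**Figure D1:**
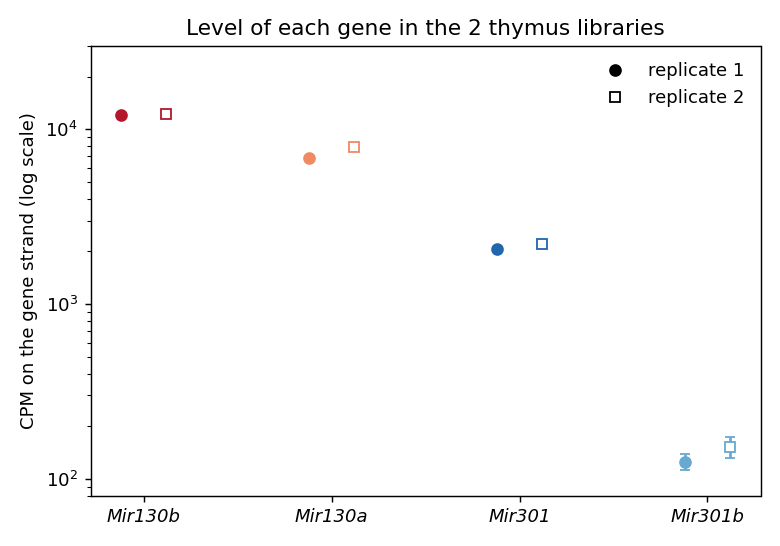
Level of each gene on the gene strand in CPM (log axis) in replicate 1 (filled circles) and replicate 2 (open squares), with 95% Wilson intervals for counting error, which are smaller than most symbols. The order from Mir130b, at 12085 and 12308 CPM, down to Mir301b, at 124 and 151 CPM, is the same in both libraries.

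Among the 294 detected genes, Mir130b ranked 22, Mir130a 37, Mir301 77 and Mir301b 174 by mean CPM. Mir130b held rank 22 in each library, and the others moved by at most 5 places between libraries, with Mir301b at 176 and 171. The median detected gene had a mean of 239 CPM, so 3 members lay above it and Mir301b below it. Ranks and median rest on uniquely mapped reads. Of the 294 genes, 65 share 20 bases with another miRNA locus, and no member does. The part of uncounted multimapping reads in this ranking was not tested.

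**Figure D2:**
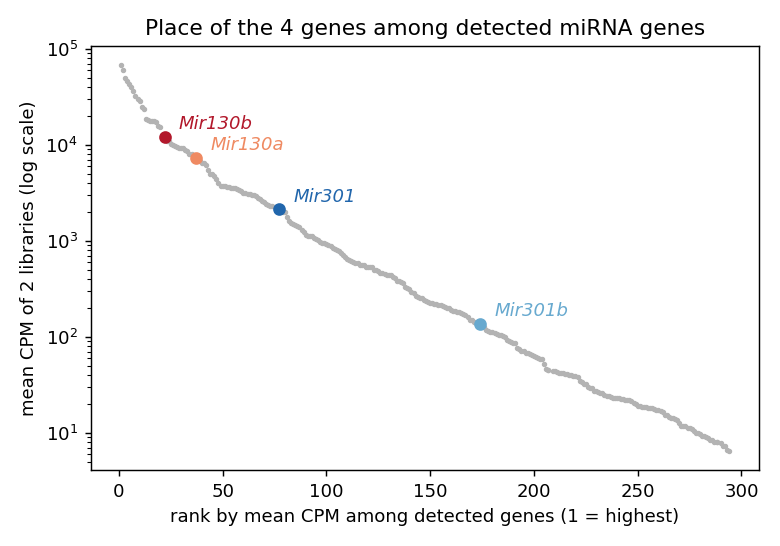
Mean CPM of the 2 libraries (log axis), from uniquely mapped reads, against rank for the 294 detected genes (grey), with the 4 members in colour. Mir130b at rank 22 and Mir130a at rank 37 sit on the steep upper part of the curve, and Mir301b at rank 174 lies below the median of 239 CPM.

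The genes nearest in level, 1 above and 1 below each member, show how finely this ranking can be read. Mir130b stood between Mir128-1 (14835 and 10716 CPM) and Mirlet7b (11215 and 10836 CPM). The values of Mir128-1 lay on either side of those of Mir130b, so their order is not resolved, whereas Mirlet7b, a let-7 gene, was below Mir130b in both libraries. Mir130a stood between Mir92-1 of the miR-17-92 cluster (7157 and 8329 CPM) and Mirlet7d (7733 and 6873 CPM), and its range overlapped with both. Within each library Mir92-1 was above Mir130a, whereas Mirlet7d was above it in replicate 1 and below it in replicate 2. Mir301 stood between Mir92-2 (1986 and 2326 CPM) and Mir150, a miRNA of mature lymphocytes (1853 and 2333 CPM), again with overlapping ranges. Mir301b stood between Mirlet7c-1 (150.3 and 129.5 CPM) and Mir134 (130.9 and 122.6 CPM), and overlapped with both. With 2 libraries, likeness could be judged by level alone, and these neighbours share nothing else by this measure.

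Together the 4 genes took 2.11% of the gene-strand counts in replicate 1 (95% Wilson interval 2.09 to 2.13) and 2.26% in replicate 2 (2.23 to 2.28), a mean of 2.18% ± 0.104. The Mir130 genes supplied most of this, with 1.89% and 2.02%, and the Mir301 genes supplied 0.218% and 0.236%. Within the family, the Mir130 genes accounted for 89.7% of counts in replicate 1 and 89.6% in replicate 2, so the balance of the branches was nearly the same in both pups. Within the Mir130 branch the balance differed more. Mir130b made up 57.3% of the family in replicate 1 (56.9 to 57.7) and 54.5% in replicate 2 (54.0 to 55.1), and Mir130a made up 32.4% (32.0 to 32.8) and 35.0% (34.5 to 35.6). Mir301 made up 9.75% and 9.77%, and Mir301b 0.588% and 0.670%. By locus, the chromosome 16 pair gave 57.9% and 55.2% of the family, nearly all of it from Mir130b.

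**Figure D3:**
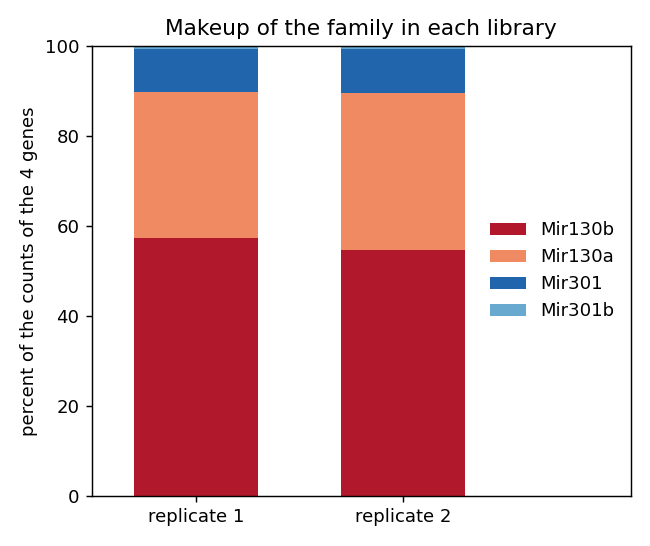
Percent of the counts of the 4 genes that came from each gene, in replicate 1 and replicate 2. Mir130b and Mir130a fill 89.7% and 89.6% of the bars, and Mir301b, at 0.588% and 0.670%, is the thin band at the top.

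Ratios taken within a library need no scaling between libraries. A small RNA read spans the miRNA, and the listed seed arms have 22 or 23 bases, so counts were compared without division by length. All ratios here and below are of counts. Whether RNAs of unlike sequence entered the libraries equally well was not tested, and likeness of the 2 libraries cannot show it. Mir130b exceeded Mir130a by 1.77 times in replicate 1 (exact 95% interval 1.74 to 1.80) and by 1.56 times in replicate 2 (1.52 to 1.60). These intervals did not overlap, so the balance of the Mir130 genes differed between the libraries by more than counting error. Mir130a exceeded Mir301 by 3.32 times (3.22 to 3.42) and 3.58 times (3.44 to 3.74), also without overlap. Mir130b exceeded Mir301 by 5.88 times (5.71 to 6.05) and 5.58 times (5.36 to 5.81), where the intervals overlapped. Mir301 exceeded Mir301b, its closest relative in sequence, by 16.6 times (14.9 to 18.6) and 14.6 times (12.6 to 16.9), with overlapping intervals.

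The neighbours Mir130b and Mir301b had very unequal counts. Mir130b exceeded Mir301b by 97.5 times in replicate 1 (exact 95% interval 87.6 to 109) and by 81.4 times in replicate 2 (70.7 to 94.2), a mean of 89.4 ± 11.4. On the log2 scale the ratio was 6.61 and 6.35. For scale, the same ratio, higher over lower gene, was taken in all 60 pairs of neighbouring detected miRNA genes on 1 strand with starts within 1000 bases. The median pair had a mean log2 ratio of 2.29, 13 pairs were below 1 and 18 above 4, and Mir130b over Mir301b ranked 10 of 60. Of the 9 pairs with a larger ratio, 8 included a gene that shares 20 bases with a miRNA gene elsewhere, such as Mir20a over Mir19b-1. Over the 37 pairs in which neither gene shares 20 bases with another locus, a selection made after the values were seen, Mir130b over Mir301b ranked 2. This limit of 20 bases does not clear Mir301b, whose hairpin matches miR-301a-3p in 22 of 23 bases, and the part of uncounted multimapping reads in any of these ratios was not tested. Mir20a over Mir19a of the miR-17-92 cluster was more unequal, with log2 ratios of 7.25 and 7.58, and Mir18 over Mir19a followed with a mean of 5.84. The pairs are not independent, since genes of a cluster enter several of them, and no test was made. The Mir130b to Mir301b ratio differed by -0.26 on the log2 scale (replicate 2 minus replicate 1), and the median absolute difference over the 60 pairs was 0.26.

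**Figure D4:**
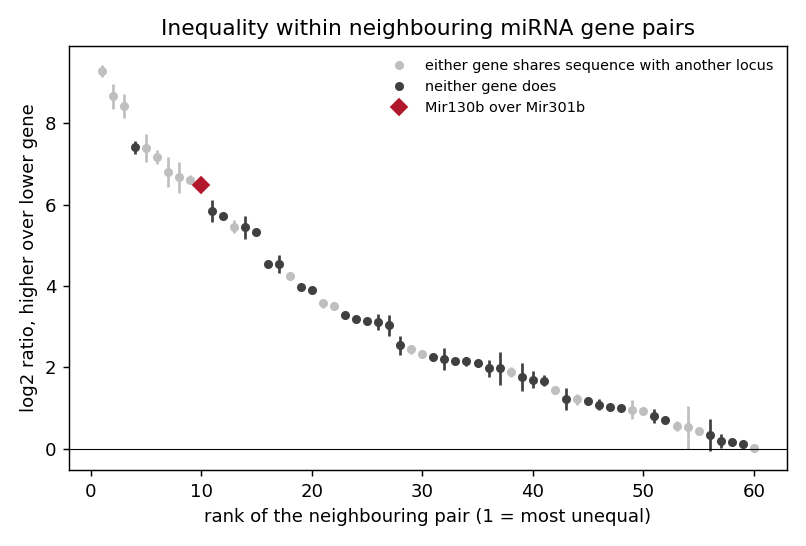
Log2 ratio of the higher over the lower gene in 60 pairs of neighbouring miRNA genes, ranked, with points at the mean and bars spanning the 2 libraries; light grey marks pairs in which a gene shares 20 bases with another locus. Mir130b over Mir301b (red diamond) ranks 10 of 60, with a single dark pair, Mir20a over Mir19a, above it.

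Between the pups, the members differed little. Differences are log2 ratios of replicate 2 over replicate 1 after TMM scaling, tested by a two-sided exact binomial test with Benjamini-Hochberg adjustment over all 294 detected genes. Of the 294, 128 genes (43.5%) were called at an adjusted p under 0.05, with 59 (20.1%) higher and 69 (23.5%) lower in replicate 2. Scaled to total counts, the split was 72 higher and 52 lower. Against this background, 2 of 4 members were called, 1 in each direction, and 2 did not pass, whereas with total counts 2 were higher, 0 were lower and 2 did not pass.

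Mir130a was higher in replicate 2, by a log2 ratio of 0.14, or 1.10-fold (95% interval 1.08 to 1.13), and passed the test (adjusted exact binomial p = 4.6e-15). Mir130b was lower in replicate 2 by this scaling, with a log2 ratio of -0.040 (-0.067 to -0.013, adjusted exact binomial p = 0.011), a ratio of 0.973. With total counts as the scale its ratio was 0.026 (adjusted exact binomial p = 0.12), so its direction turned with the scaling. Mir301 had a log2 ratio of 0.034 (-0.031 to 0.0997, adjusted exact binomial p = 0.46), and it passed with total counts at 0.10 (adjusted exact binomial p = 0.0070). Mir301b had the largest ratio of the 4 and the fewest counts, 0.22 (-0.041 to 0.48, adjusted exact binomial p = 0.18). Its interval reaches a 1.39-fold difference, so a moderate difference of Mir301b was not detectable at this depth.

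The sizes of these differences were near or below that of the median gene. The median absolute log2 ratio over all detected genes was 0.21, and it exceeded those of Mir130a, Mir130b and Mir301, while Mir301b lay just above it. The median detected gene had 239 CPM, below the levels of Mir130a, Mir130b and Mir301, and genes with fewer counts carry more counting error. No median was taken over genes of like level alone. The members' median log2 ratio was 0.089, beside -0.030 over all detected genes. The binomial test compares these libraries by counting error alone. The spread between libraries beyond counting error, edgeR's biological coefficient of variation, was 0.154, and a negative binomial test in edgeR that includes it called 1 of 294 genes (0.34%), which was no member, and 15 at an unadjusted p under 0.05. All members had an adjusted p of 1 in that edgeR test. It sets 1 library against 1, so the differences have no replicate check. Its spread was estimated from the same libraries that it compares, so few calls could be expected beforehand. The small number of calls therefore says little about the members or the lists below.

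**Figure D5:**
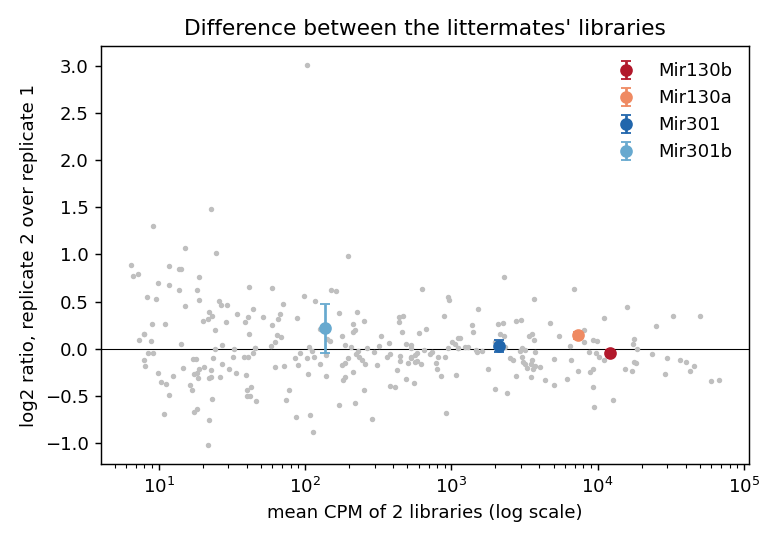
Log2 ratio of replicate 2 over replicate 1 against mean CPM (log axis) for the 294 detected genes (grey) and the 4 members, with exact 95% intervals. The members lie between -0.040 (Mir130b) and 0.22 (Mir301b), inside the scatter of genes of like level.

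Counts on the strand opposite to the members were absent or nearly so, with 1 count in each library at Mir130a and 0 at Mir130b, Mir301 and Mir301b. The unstranded counts of the members therefore differ from those on the gene strand by at most 1 per library.

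Other loci carry the same seed, and those among the counted genes had no uniquely mapped counts. AGUGCAA stands at bases 2 to 8 of 7 of the 1738 mature miRNAs in the RefSeq table (0.403%), 3 of them from the members, and anywhere in 12 of 1005 hairpins (1.19%), read on the listed strand. The 4 other mature miRNAs are shown because they could in principle add to the same seed pool.
miR-130c: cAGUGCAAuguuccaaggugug
miR-6341: cAGUGCAAugauauugucacuau
miR-6389: cAGUGCAAuguuaaacuuugc
miR-721: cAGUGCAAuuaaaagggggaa

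Mir130c, Mir6341 and Mir6389 had 0 counts on either strand in both libraries, which allows up to 1.10 CPM in replicate 1 and 2.33 in replicate 2 for uniquely mapped reads. Mir721 was not among the counted genes and was not analysed here. Of the 7 counted loci with this seed, the 4 members were thus the ones with counts.

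The family of miR-148a, miR-148b and miR-152 carries a closely related seed. Bases 1 to 7 of the members' seed arms, CAGUGCA, stand at bases 2 to 8 of miR-148a-3p, miR-148b-3p and miR-152-3p, a shift by 1 base, shown in capitals. These were the 3 of 1738 mature miRNAs (0.173%) with CAGUGCA at bases 2 to 8.
miR-148a-3p: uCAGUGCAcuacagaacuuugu
miR-148b-3p: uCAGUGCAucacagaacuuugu
miR-152-3p: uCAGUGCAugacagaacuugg

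Genes of this shifted seed were lower than the Mir130 genes. Mir148a had 1601 and 1648 CPM, Mir148b had 519 and 547, and Mir152 had 194 and 229.6, so all 3 lay below Mir301 and above Mir301b. None of the 3 passed the exact binomial test between the libraries. They belong to a list of 9 genes whose seeds contain the AGUGC or GUGC core, which also holds the 6 genes of the miR-17 seed, known for promoting proliferation. The list as a whole took 14.9% and 13.8% of counts, against 2.11% and 2.26% for the members, led by Mir17 (47713 and 44198 CPM) and Mir93 (30197 and 29538 CPM). Of the 9, 6 were lower in replicate 2 by the exact binomial test, all of the miR-17 seed, 0 were higher and 3 did not pass, beside 23.5% of all detected genes lower and 20.1% higher. The median log2 ratio of the list was -0.15, or -0.081 with total counts, which gave the same numbers of calls, and the edgeR negative binomial test called 0 of the 9.

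Lists that touch the loci and known settings of the members gave the following values. Of 5 miRNA genes in introns of the cell cycle genes Mcm7 and Smc4, a setting like that of Mir301 in Ska2, 4 were lower in replicate 2, 0 were higher and 1 did not pass, with a median log2 ratio of -0.098, beside 23.5% of all detected genes lower. With total counts 3 were lower and the median was -0.032. This list was led by Mir93 and Mir106b (18780.4 and 17754 CPM), so Mir301, at 2056 and 2205 CPM, was below each of its 2 leading genes. Of 4 vascular miRNA genes, 3 were in the tables and tested, with 1 higher, 1 lower and 1 not passing, or 1 higher and 0 lower with total counts. Mir126a of endothelial cells, with a log2 ratio of 0.34 (0.33 to 0.36), was higher in replicate 2, as was Mir130a, while Mir222 was lower at -0.33 (-0.56 to -0.094) and Mir221 had -0.05 and did not pass. The mesenchymal markers had 2 of 5 tested genes higher and 0 lower, with a median of 0.26, and their summed share was 4.57% in replicate 1 and 6.06% in replicate 2. Beside the 20.1% of all detected genes called higher and 23.5% called lower, the lymphocyte markers had 1 of 5 higher and 4 lower, the epithelial markers 3 of 6 higher and 1 lower, the erythroid markers 0 of 2 higher and 1 lower, the myeloid markers 0 of 2 higher and 1 lower, and the striated muscle markers 2 of 3 tested genes higher and 0 lower. With total counts the epithelial markers had 5 of 6 higher and 1 lower and the mesenchymal markers 3 of 5 higher, and the other marker lists kept their numbers of calls. Lists this short cannot be read against those shares. In the edgeR negative binomial test, 1 gene of all these lists was called, a striated muscle marker, Mir208b. Mir1a-1, Mir133a-1 and Mir133a-2 of striated muscle were at 0 counts in both libraries. Only uniquely mapped reads are counted, so these values do not show that the miRNAs were absent. The part of these cell types in the Mir130a difference was not tested.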

How the data were processed

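Each library has a deposited table of raw counts for every miRNA gene, in 3 unnamed columns. Reads were mapped to mm10 and counted over GENCODE M4 by the authors, per the text files deposited beside the tables. The software for both steps is not given in the sources used here. From the values, the first count column equals the second plus the third. The second, which has a larger total than the third, was taken as the gene strand and used. The third, taken as the opposite strand, held 468355 and 215626 counts in replicates 1 and 2. These were left out too, except in the alternative with unstranded counts. Unmapped reads (10.6% and 9.17% of replicates 1 and 2), multimapping reads (56.3% and 57.5%), reads outside miRNA genes (2.99% and 2.57%) and 0 ambiguous reads were tallied apart by the authors and left out.

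Symbols, coordinates and the hairpins searched for shared stretches came from GENCODE M21, a later release, which matched 1894 of 1973 identifiers. The printed sequences, with the Mir301b hairpin, are RefSeq entries. Tests used TMM in edgeR 4.0.16 (R 4.3.3) and exact binomial tests (scipy 1.17.1, Python 3.11.15). The binomial test was tried on simulated counts with counting error only. That trial does not cover the further spread between these libraries. Alternatives were DESeq2 1.42.0 size factors, total counts, other filters, the unstranded counts, counts per base, an edgeR negative binomial test, leaving out the most abundant gene, and each library alone. Genes named are the members, loci with the same seed, the nearest in level, host and neighbouring genes, and the 2 leading genes of each list, and a few others as examples. Members and lists were chosen with earlier results of these data known. The exact binomial p-values set the difference between these libraries against counting error only, and a difference that passes may be technical.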

Additional observations from a re-analysis of the deposited data

How the results depend on the processing

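The order of the 4 genes was the same with every alternative for levels that was run. With the unstranded counts, whose totals are larger, mean levels were 10431 CPM for Mir130b, 6300.4 for Mir130a, 1822 for Mir301 and 118 for Mir301b, and the family share was 1.87%. Without the most abundant gene in the total, Mir130b had 13083 CPM, Mir301 2285 and the family 2.34%. Levels, shares and ratios of each library alone are given above, and each alone ranked Mir130b over Mir301b at 9 of 60 pairs. Per base of the annotated hairpin, the ratios were 1.30 for Mir130b to Mir130a, 6.01 for Mir130b to Mir301, 106 for Mir130b to Mir301b, 4.64 for Mir130a to Mir301, 81.3 for Mir130a to Mir301b and 17.6 for Mir301 to Mir301b. Per base of the mature arm, Mir130b to Mir301 was 5.99. Mir130b over Mir301b ranked 11 of 89 pairs with starts within 10000 bases. With at least 1 count in both libraries it ranked 13 of 75, where pairs with a nearly silent gene enter and the median log2 ratio was 2.54. The pair ranked 4 of 36 pairs with at least 100 counts, where fewer pairs enter, and 2 of 37 without shared sequence, chosen after seeing the data. It is no neighbouring pair within 300 bases, so that setting gave no value.

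The difference of Mir130b between the libraries rested on the scaling. Its log2 ratio was -0.0098 with DESeq2 size factors, -0.0071 with at least 100 counts in both libraries and -0.031 without the most abundant gene, none of which passed, and 0.026 with total counts, a reversed direction. Mir130b stayed lower and passed with at least 1 count in either library (-0.058) and with the unstranded counts (-0.034). Mir301 passed with total counts, at 0.10. In the edgeR negative binomial test, Mir130a at 0.14 and Mir130b at -0.040 did not pass, and 1 gene was called, 1 higher and 0 lower. That test adds spread between libraries to counting error, estimated from the same libraries that it compares, so its few calls decide nothing here. Mir130a passed under all 6 other alternatives. Depth limits Mir301b, with 339 and 195 counts. No paired analysis was possible because there is 1 group.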
